A study of Bos taurus with 44 samples.

Results

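Described here are the genes of the proteasome in cattle endometrium, the lining of the uterus, measured on 44 arrays that each set 2 RNA samples against each other. All genes whose annotated symbol starts with PSMA, PSMB, PSMC, PSMD, PSME, PSMF or PSMG and a digit were taken, which gave 41 of the 8073 named genes on the array. They are 6 PSMA, 10 PSMB, 5 PSMC, 11 PSMD, 4 PSME, 1 PSMF and 4 PSMG genes. The rule also took in PSME3IP1, which encodes a protein that binds the activator PSME3 and is not itself a subunit. The 5 genes PSMB8, PSMB9, PSMB10, PSME1 and PSME2 are called the immunoproteasome genes below and are set against the 36 others. One probe stands for each gene, and none of these probes lacked a value. PSME3, PSMA2, PSMA8, PSMB11, PSMC6, PSMD4, PSMD10 and PSMD12 were not analysed here.

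The proteasome is the large protease that degrades proteins tagged with ubiquitin. Its 20S core is a barrel of alpha subunits (PSMA) and beta subunits (PSMB), in which PSMB5, PSMB6 and PSMB7 carry the cutting sites, and the 19S cap of ATPases (PSMC) and other subunits (PSMD) binds, unfolds and feeds in the substrate. Interferons are known to induce 3 alternative catalytic subunits, PSMB8 in the place of PSMB5, PSMB9 in the place of PSMB6 and PSMB10 in the place of PSMB7, together with PSME1 and PSME2, which form the PA28 activator. This immunoproteasome is known for making peptides that MHC class I molecules present. In ruminants the early embryo secretes interferon tau, to which the endometrium responds with many interferon-stimulated genes.

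The tissue was caruncular endometrium, where the placenta attaches, or the intercaruncular endometrium between these sites. The labels name artificial insemination (AI), transfer of embryos made by in vitro fertilisation (IVF-ET) and nuclear transfer of a somatic cell, that is cloning (SCNT). The AI animals set against IVF-ET carry another label code (IAT) than those set against CJ and in the pools (IAJ), with no animal in both, and the codes are not explained in the sources used here. A further group, CJ, is explained in the labels by the word cycle alone. Sources used here do not give day of sampling, breed or age. For IVF-ET against AI, each area had 10 arrays in a loop of 5 animals per group, with 5 IVF-ET and 3 AI animals shared between the areas. In intercaruncular tissue, 10 arrays paired 5 SCNT animals with CJ animals and 10 paired 4 AI animals with CJ animals, 5 CJ animals in all. In caruncular tissue, SCNT and AI met on 4 arrays of 2 pairs of pools. Pool size is not given in the sources used here. Precision is limited by these few animals and pools. For the pools the p-values rest on the spread between the 2 pairs. Elsewhere they rest on the spread between arrays, with a correlation, common to all probes, for arrays that share an animal. There they take in the spread between animals only as far as that correlation does.

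The deposited values are log2 ratios of the 2 dyes. The labels do not say which dye is the numerator. The ratio was read as Cy5 over Cy3, the likely direction, since ISG15, an interferon-stimulated gene, was then 4.65 higher in SCNT than in CJ animals and 2.90 higher in AI than in CJ animals on the log2 scale, and the oxytocin receptor OXTR was lower by -3.54 and -2.71. Under the other reading every sign below turns. The direction of the immunoproteasome genes is therefore no independent finding, whereas their movement opposite to the other proteasome genes holds under either reading.

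AI animal 3 of the arrays with CJ stood apart in genes outside the proteasome too, which were picked with results of these data known. Its ISG15 lay at -0.13 against the mean of the CJ animals, where the other 3 AI animals lay between 3.80 and 5.53. Its MX1 lay at -0.30 (4.19 to 4.42 in the others) and its COL1A1, a collagen of stromal fibroblasts, at -0.12 (-3.39 to -2.18 in the others). Its OXTR lay at -1.20, between the CJ animals (-0.32 to 0.24) and the other AI animals (-4.38 to -2.59). The 4 arrays of this animal are 4 of the 10 that set AI against CJ, so it weighs more in the fitted AI difference than any other AI animal. Where leaving it out ended or gave the call of a proteasome gene, or moved a called value by over 1.5 times, the value without it is given too. This animal was singled out by its values, so fits without it are no independent support for a rise.

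In intercaruncular tissue the proteasome genes split. Most subunits of the standard 20S core and the 19S cap were lower in SCNT and in AI animals than in CJ animals, by up to 1.80-fold, and the immunoproteasome genes were higher, by up to 2.14-fold. In SCNT animals 21 of 41 genes fell and 4 rose (limma, adjusted p below 0.05), where 11.3% of all 13824 probes were lower and 10.4% were higher. In AI animals 21 of 41 fell and 4 rose, where 8.08% of all probes were lower and 6.92% higher. The median difference of the 5 immunoproteasome genes was 0.63 in SCNT and 0.48 in AI animals, that of the 36 others was -0.32 and -0.33, and that of all probes was 0.01 in both. SCNT and AI were measured against the same CJ animals, so the values of both comparisons stand side by side here and do not support each other.

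**Figure D1:**
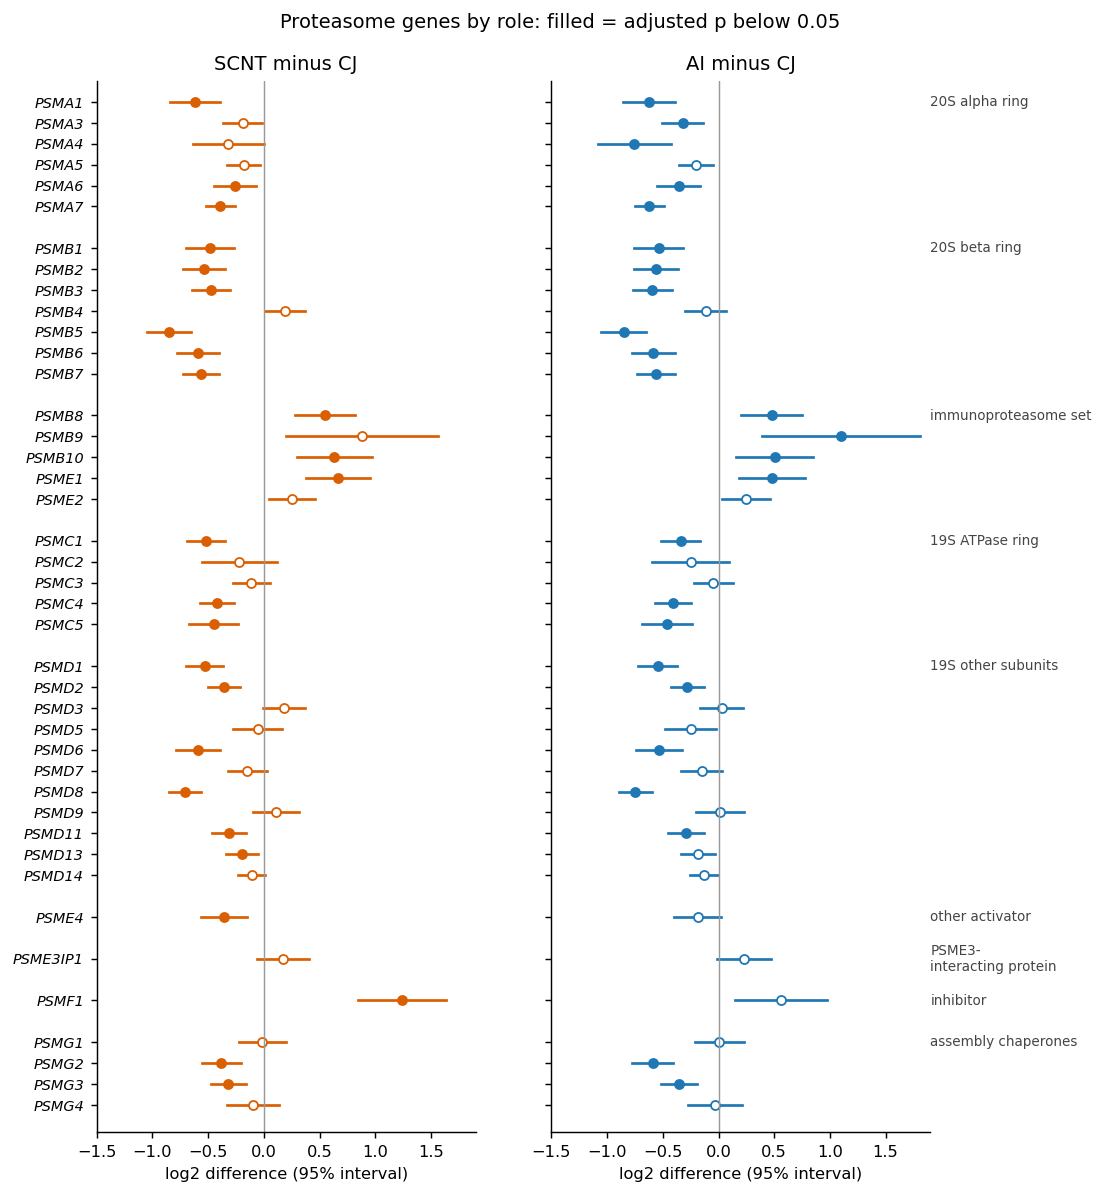
The log2 difference (x axis) of each of the 41 proteasome genes in intercaruncular tissue, SCNT minus CJ animals on the left and AI minus CJ animals on the right, ordered by role, with lines for the 95% interval and filled points for an adjusted p below 0.05. Most PSMA, PSMB, PSMC and PSMD genes lie below 0, the immunoproteasome genes and the inhibitor PSMF1 lie above 0, and the interval of PSMB9 is the widest of the immunoproteasome genes in both panels.

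Levels of single animals are given as log2 differences from the mean of the 5 CJ animals. The standard error (SE) of such a level was 0.15 for the median gene. It was larger for PSMB9 (0.35), PSMB10 (0.34), PSMF1 (0.34), PSMB8 (0.25) and PSMB5 (0.21) and smaller for PSME1 (0.07) and PSME2 (0.08). A margin between animals below this SE is within the error of a level. Because the tissue is a mixture of cells, fewer cells of a type and less RNA per cell cannot be told apart in any of these differences.

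PSMB8, the interferon-induced counterpart of PSMB5, lay at 0.64, 0.24, 0.72, 0.69 and 0.47 in SCNT animals 1 to 5. It lay at 0.62, 1.09, 0.00 and 0.52 in AI animals 1 to 4 and between -0.18 and 0.18 in the CJ animals. Every SCNT animal and every AI animal except AI 3 lay above every CJ animal. PSMB8 rose by 0.55 ± 0.13 (SE, n = 5 SCNT and 5 CJ animals, adjusted p = 0.00329) in SCNT and by 0.48 ± 0.13 (n = 4 AI and 5 CJ animals, adjusted p = 0.0166) in AI animals.

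PSMB9, the counterpart of PSMB6, varied most between animals. It lay at -0.19, 2.13, 0.66, 0.66 and 1.15 in SCNT animals 1 to 5, and at 1.95, 1.85, -0.36 and 1.92 in AI animals 1 to 4. The CJ animals lay between -0.46 and 0.52, so SCNT 1 and AI 3 lay among them and the other 7 animals lay above them. The AI difference passed the test (1.10 ± 0.34, adjusted p = 0.0312). The SCNT difference of 0.88 ± 0.33 did not (adjusted p = 0.0605). With 1 animal left out it ranged from 0.54 to 1.15, with an adjusted p of up to 0.31, and did not pass in 11 of 14 fits. It passed at 1.13 without SCNT 1 (adjusted p = 0.0331) and at 1.15 without CJ 1 (adjusted p = 0.0368). Without AI 3, whose arrays share the estimate of the spread, it passed at 0.88 (adjusted p = 0.00842).

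PSMB10, the counterpart of PSMB7, lay at 0.85, 0.88, 0.71, 0.31 and 0.43 in the SCNT animals and at 1.12, 0.85, -0.14 and 0.61 in the AI animals. The CJ animals lay between -0.29 and 0.29, so all SCNT animals lay above them, SCNT 4 by a narrow margin, and AI 3 again lay among them. PSMB10 rose by 0.63 ± 0.16 in SCNT (adjusted p = 0.00611) and by 0.50 ± 0.17 in AI animals (adjusted p = 0.0436).

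The PA28 subunit PSME1 lay at 0.63, 0.89, 0.67, 0.67 and 0.48 in the SCNT animals and at 0.78, 0.72, -0.21 and 1.07 in the AI animals, against -0.21 to 0.17 in the CJ animals. It rose by 0.67 ± 0.14 in SCNT (adjusted p = 0.00118) and by 0.48 ± 0.14 in AI animals (adjusted p = 0.0248). Its partner PSME2 lay at 0.40, 0.30, 0.25, 0.21 and 0.12 in the SCNT animals and at 0.55, 0.57, -0.19 and 0.32 in the AI animals, against -0.15 to 0.16 in the CJ animals. Of the SCNT animals only SCNT 5 overlapped with the CJ animals in PSME2. Its differences of 0.25 ± 0.10 in SCNT (adjusted p = 0.0797) and 0.24 ± 0.10 in AI animals (adjusted p = 0.134) did not pass the test. Without AI 3 the SCNT difference passed (adjusted p = 0.00504). PSME1 and PSME2 are near neighbours in the genome, with only EMC9 between them among protein-coding genes of the ARS-UCD2.0 annotation.

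**Figure D2:**
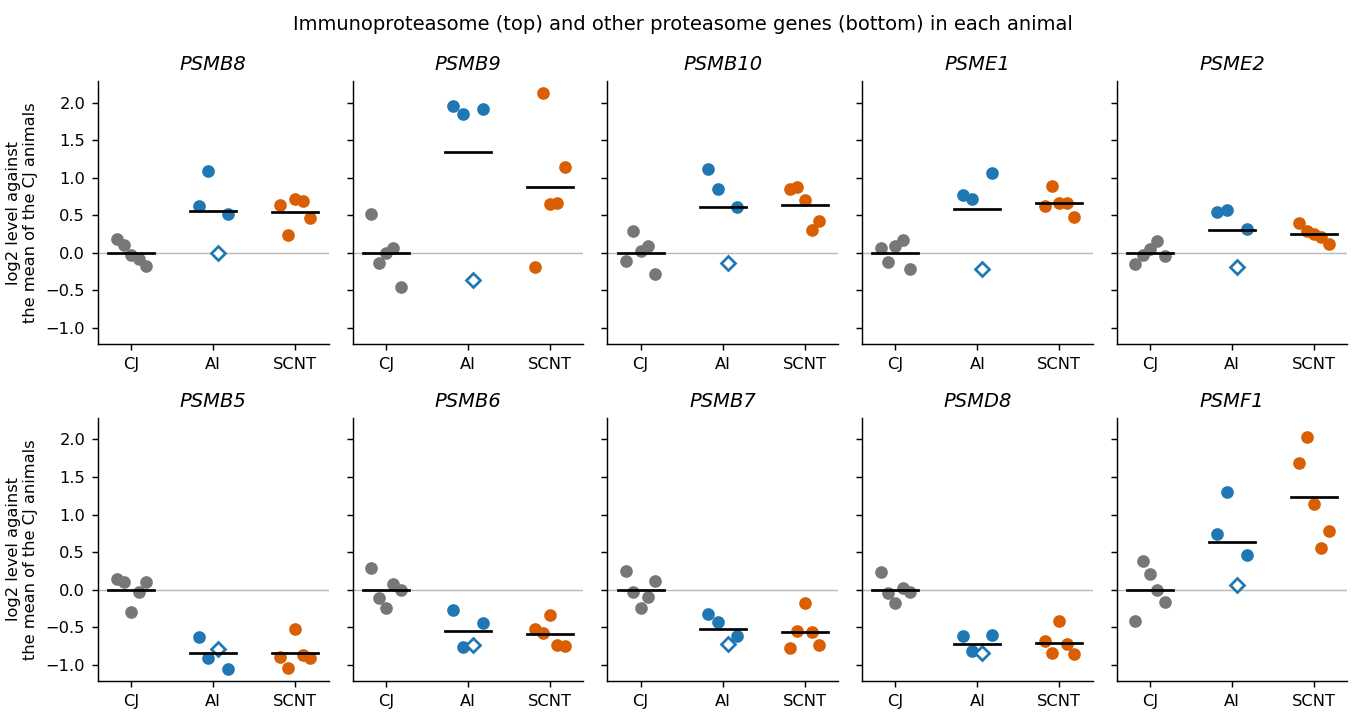
The level of 10 proteasome genes in each animal of the intercaruncular arrays with CJ (y axis, log2 against the mean of the CJ animals), with 1 point per animal, a bar for the mean of each group and AI animal 3 as an open diamond. In the top row AI 3 lies at 0.00 or below while the other AI animals lie above every CJ animal, and in PSMB5, PSMB6, PSMB7 and PSMD8 it lies with the other AI animals below every CJ animal.

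The calls in AI animals depended on single animals. Without AI 3 all 5 immunoproteasome genes passed, with PSMB9 at 1.84 (adjusted p = 0.000247), PSME1 at 0.88 (9.42e-07), PSMB10 at 0.83 (0.000323), PSMB8 at 0.69 (0.00109) and PSME2 at 0.52 (0.00015), where 10.1% of all probes were higher. PSMF1 and the assembly chaperone PSMG1 passed too, which made 7 rises, and 20 genes fell, where 10.3% of all probes were lower. In SCNT animals, whose spread is estimated from the same fit, 7 genes rose and 22 fell without AI 3, where 13.2% of all probes were higher and 14.3% lower. With AI 3 kept, leaving out AI 2 ended the calls of PSMB8 (0.30, adjusted p = 0.163), PSMB9 (0.86, 0.19), PSMB10 (0.41, 0.214) and PSME1 (0.39, 0.152). Leaving out AI 1 ended those of PSMB9 (0.93, 0.145), PSMB10 (0.36, 0.242) and PSME1 (0.41, 0.13), and leaving out AI 4 those of PSMB9 (0.92, 0.149), PSMB10 (0.48, 0.125) and PSME1 (0.34, 0.174). Leaving out CJ 2 or CJ 5 left none of these genes called, leaving out CJ 1 left PSMB8 alone, and leaving out CJ 4 left PSMB8 and PSME1. PSMB10, the nearest to the threshold, also lost its call without SCNT 1, SCNT 2 or SCNT 4. The rises of PSMB8, PSMB10 and PSME1 in SCNT animals passed without any 1 of the 14 animals.

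The standard catalytic subunits moved the other way. PSMB5, which carries the chymotrypsin-like site, lay at -0.89, -1.04, -0.52, -0.87 and -0.91 in the SCNT animals and at -0.64, -0.91, -0.79 and -1.06 in the AI animals. The CJ animals lay between -0.30 and 0.14, so all 9 animals lay below them. PSMB5 fell by 0.85 ± 0.09 in SCNT (1.80-fold, adjusted p = 2.07e-06) and by 0.85 ± 0.10 in AI animals (1.80-fold, adjusted p = 6.54e-06), on 10 of 10 arrays in each.

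PSMB6, the caspase-like subunit, lay between -0.76 and -0.34 in the SCNT animals and between -0.76 and -0.27 in the AI animals, all below the CJ animals (-0.25 to 0.29). It fell by 0.59 ± 0.09 in SCNT (adjusted p = 5.77e-05) and by 0.58 ± 0.09 in AI animals (adjusted p = 0.000175). PSMB7, the trypsin-like subunit, lay between -0.78 and -0.18 in the SCNT animals and between -0.72 and -0.33 in the AI animals. SCNT 3, at -0.18, was the only 1 of the 9 to overlap with the CJ animals (-0.24 to 0.25). PSMB7 fell by 0.57 ± 0.08 in SCNT (adjusted p = 2e-05) and by 0.56 ± 0.08 in AI animals (adjusted p = 6.55e-05). The falls of PSMB5, PSMB6 and PSMB7 passed without any 1 of the 14 animals.

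The change of each induced subunit less the change of the standard subunit it replaces compares changes, not the amounts of both transcripts. For PSMB8 less PSMB5 this was 1.53, 1.28, 1.24, 1.56 and 1.38 in the SCNT animals and 1.26, 2.01, 0.79 and 1.58 in the AI animals, against -0.28 to 0.27 in the CJ animals. For PSMB10 less PSMB7 it was 0.87 to 1.63 in the SCNT animals and 0.58 to 1.45 in the AI animals, against -0.40 to 0.32 in the CJ animals. For PSMB9 less PSMB6 it was 0.34 to 2.71 and 0.38 to 2.62, with SCNT 1 and AI 3 the lowest, against -0.45 to 0.25 in the CJ animals. In all 3 pairs every SCNT and every AI animal lay above every CJ animal. For PSMB9 less PSMB6 the margins of SCNT 1 and AI 3 were below the SE of a PSMB9 level (0.35). For PSMB10 less PSMB7 the margin of AI 3 was below the SE of a PSMB10 level (0.34). In AI 3 the induced subunits lay at 0.00, -0.36 and -0.14, so its positive differences came with the lower standard subunits (-0.79, -0.74 and -0.72). Likewise SCNT 1 had PSMB9 at -0.19 and PSMB6 at -0.53. These pairs are a description and have no test.

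Among the other beta subunits, PSMB1, PSMB2 and PSMB3, which have no cutting site, fell in both groups by 0.47 to 0.59. PSMB3 lay below every CJ animal in all SCNT and AI animals, and fell by 0.59 ± 0.08 in AI animals (adjusted p = 5.56e-05). PSMB2 fell by 0.54 ± 0.09 in SCNT (adjusted p = 0.000183) and by 0.56 ± 0.09 in AI animals (adjusted p = 0.000338), with SCNT 3 and AI 1 among the CJ animals. PSMB4, another beta subunit with no cutting site, did not follow. It lay at 0.20, 0.27, 0.25, 0.10 and 0.14 in the SCNT animals, above every CJ animal (-0.03 to 0.02), and at 0.24, -0.03, -0.55 and 0.16 in the AI animals. Neither difference passed (0.19, adjusted p = 0.124, and -0.11, adjusted p = 0.542). Without AI 3, whose value is the lowest, the SCNT difference passed (0.19, adjusted p = 0.0062) and the AI difference was 0.12 (adjusted p = 0.231).

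The alpha subunits, which form the outer rings and the gate of the barrel, all had negative differences. In SCNT animals 3 of 6 fell (median -0.29) and in AI animals 5 of 6 (median -0.49). PSMA7 lay at -0.41, -0.40, -0.18, -0.52 and -0.44 in the SCNT animals and at -0.48, -0.61, -0.80 and -0.46 in the AI animals, against -0.12 to 0.10 in the CJ animals. It fell by 0.39 ± 0.06 in SCNT (adjusted p = 8.33e-05) and by 0.62 ± 0.06 in AI animals (adjusted p = 1.36e-06). PSMA1 fell by 0.62 in both, and PSMA6 by 0.26 and 0.36. PSMA3 (-0.19 and -0.32) and PSMA4 (-0.32 and -0.75) passed in AI animals and not in SCNT animals, a difference between the groups that itself did not pass. AI 3 was the lowest AI animal in PSMA3 and PSMA6, and without it neither passed in AI animals (-0.18, adjusted p = 0.218, and -0.24, adjusted p = 0.0981). PSMA5 (-0.18 and -0.21) passed in neither, and without AI 3 it passed in SCNT animals (adjusted p = 0.0411).

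In the 19S cap, 3 of 5 ATPases fell in both groups. PSMC1 lay between -0.67 and -0.35 in the SCNT animals and between -0.51 and -0.22 in the AI animals, against -0.08 to 0.12 in the CJ animals, and fell by 0.52 ± 0.08 (adjusted p = 8.87e-05) and 0.34 ± 0.08 (adjusted p = 0.00753). PSMC4 fell by 0.42 and 0.41 and PSMC5 by 0.45 and 0.46. PSMC2 (-0.22 and -0.25) and PSMC3 (-0.11 and -0.05) passed in neither group.

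Of the 11 other cap subunits, 6 fell in SCNT animals (median -0.19) and 5 in AI animals (median -0.25). PSMD8 had the smallest p of all 41 genes in both comparisons. It lay at -0.68, -0.85, -0.41, -0.73 and -0.86 in the SCNT animals and at -0.62, -0.82, -0.84 and -0.60 in the AI animals, all below the CJ animals (-0.18 to 0.23). It fell by 0.71 ± 0.07 in SCNT (adjusted p = 4.34e-07) and by 0.75 ± 0.07 in AI animals (adjusted p = 6.67e-07), on 10 of 10 arrays in each. PSMD1, a large scaffold subunit, fell by 0.53 ± 0.08 (adjusted p = 6.46e-05) and 0.55 ± 0.08 (adjusted p = 0.000141). PSMD6 fell by 0.59 ± 0.10 in SCNT (adjusted p = 0.000112) and by 0.54 in AI animals.

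PSMD2, the other large scaffold subunit, fell by 0.36 and 0.28, and PSMD11 by 0.31 and 0.29. PSMD13 passed in SCNT animals only (-0.19, adjusted p = 0.0488, and -0.18, adjusted p = 0.0923, in AI animals), and without AI 3 it passed in AI animals too (-0.29, adjusted p = 0.00802). The deubiquitinase PSMD14, which removes ubiquitin chains from the substrate, lay at -0.11 and -0.13 and passed in neither. PSMD3 (0.18 and 0.03), PSMD5 (-0.06 and -0.25), PSMD7 (-0.15 and -0.15) and PSMD9 (0.11 and 0.02) passed in neither. PSMD5 and PSMD9 are chaperones of cap assembly and no lasting subunits of it.

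PSME4, the large single-chain activator PA200, fell by 0.36 in SCNT animals (adjusted p = 0.0108) and lay at -0.19 in AI animals (adjusted p = 0.28). PSME3IP1 lay at 0.17 and 0.23 and passed in neither.

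PSMF1 encodes PI31, known as a proteasome inhibitor in vitro and as an adaptor for proteasome transport. It was the only gene outside the immunoproteasome set that rose. It lay at 1.68, 2.03, 1.15, 0.56 and 0.78 in SCNT animals 1 to 5, all above the CJ animals (-0.42 to 0.38), and at 0.74, 1.30, 0.06 and 0.46 in the AI animals, where AI 3 lay among the CJ animals. The rise in SCNT animals was the largest of all 41 genes, 1.24 ± 0.19 (2.36-fold, adjusted p = 7.18e-05), on 10 of 10 arrays. In AI animals the difference was 0.56 ± 0.20 (adjusted p = 0.0605), and without AI 3 it was 0.87 (adjusted p = 0.00317).

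The 4 PSMG genes encode chaperones that assemble the alpha ring. PSMG2 lay between -0.49 and -0.32 in the SCNT animals and between -0.81 and -0.40 in the AI animals. CJ 3, at -0.39, was low among the CJ animals (up to 0.19) and overlapped with the SCNT animals. PSMG2 fell by 0.38 in SCNT (adjusted p = 0.00211) and by 0.59 ± 0.09 in AI animals (adjusted p = 8.98e-05), and PSMG3 by 0.32 and 0.36. PSMG1 (-0.01 and 0.01) and PSMG4 (-0.10 and -0.03) passed in neither. Without AI 3 PSMG1 passed in AI animals (0.26, adjusted p = 0.0447). The second probe of PSMG4 lay at -0.04 and 0.05 and passed in neither.

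AI animal 3 separated the sets. The mean of the 5 immunoproteasome genes was 0.46, 0.89, 0.60, 0.51 and 0.53 in the SCNT animals, 1.00, 1.02 and 0.89 in AI 1, AI 2 and AI 4 but -0.18 in AI 3, against -0.24 to 0.10 in the CJ animals. The mean of the 29 core genes (PSMA, PSMB, PSMC and PSMD outside the immunoproteasome set) was -0.43 to -0.20 in the SCNT animals, -0.32, -0.38 and -0.30 in AI 1, AI 2 and AI 4 and as low as -0.48 in AI 3, against -0.15 to 0.11 in the CJ animals. AI 3 was thus among the CJ animals in the first mean and the lowest of all 14 animals in the second. It lay below the other 3 AI animals in 5 of 5 immunoproteasome genes. In the 36 other genes it lay below them in 18, among them in 16 and above them in 2, PSMC5 and PSMD13. The same shares over all probes were not determined, so these counts cannot be read as particular to proteasome genes. Its 4 arrays gave PSMB9 values of -0.68, -0.07, -0.49 and 0.18 against its CJ partners, and PSMB5 values of -0.71, -0.60, -0.32 and -1.01.

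The median of 19 interferon-stimulated genes was 1.76 to 2.18 in the SCNT animals, 2.18, 2.58 and 1.65 in AI 1, AI 2 and AI 4 but -0.20 in AI 3. All 19 rose in SCNT (median 1.84) and in AI animals (median 1.35), among them RSAD2 (5.44 and 3.48), CMPK2 (2.17 and 1.35) and TRIM25, which rose by 0.99 and 0.64. Over the 9 SCNT and AI animals, Pearson's r between a gene's level and this median was 0.68 to 0.88 for the immunoproteasome genes (median 0.83). For the other genes it was -0.69 to 0.82 (median 0.24), and PSMB4 (0.82) and PSMA6 (0.79) lay above PSMB8 (0.75) and PSMB9 (0.68). Without AI 3 the medians of r were 0.51 and 0.09, and without the animals farthest from the median, AI 2 and AI 3, they were 0.47 and 0.21. Without these 2 animals r ranged from -0.36 (PSMB8) to 0.75 in the immunoproteasome genes and from -0.67 to 0.77 in the others. Spearman's rho had medians of 0.58 and 0.20 over the 9 animals and was highest in PSMA6 (0.85). These correlations are a description over animals that share arrays and CJ partners, and that of the immunoproteasome genes rests in large part on AI 3.

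**Figure D3:**
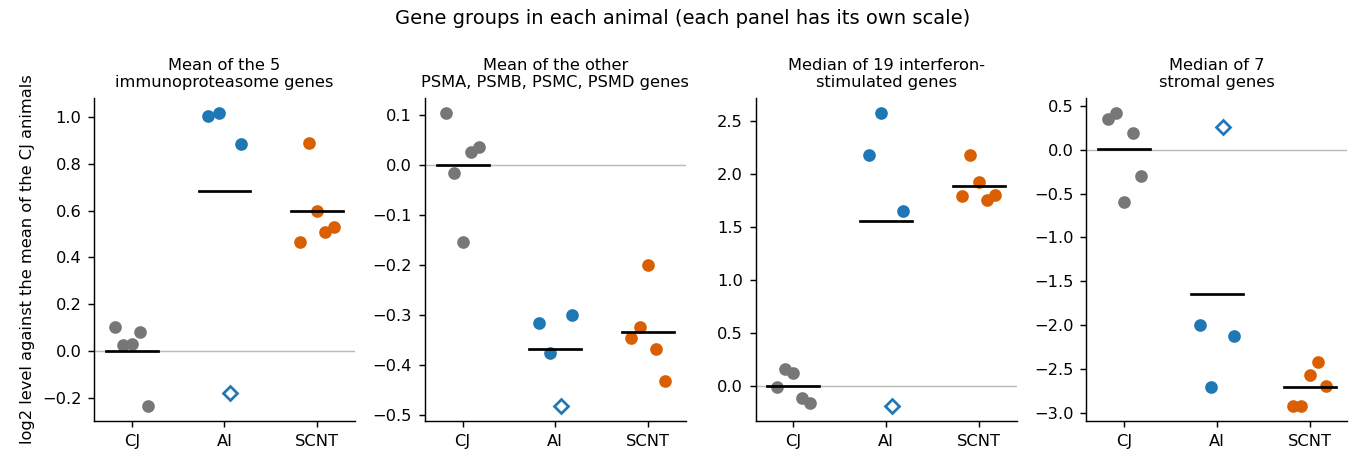
Means or medians of gene groups in each animal (y axis, log2 against the mean of the CJ animals, with a scale of its own in each panel), with 1 point per animal, a bar for the group mean and AI animal 3 as an open diamond. AI 3 lies among the CJ animals for the immunoproteasome and stromal genes and just below them for the interferon-stimulated genes (-0.20 against -0.16 for the lowest CJ animal), and is the lowest animal for the 29 core proteasome genes.

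Markers of other cells in the tissue moved too, and their part in the proteasome differences was not tested. All 7 measured stromal markers, mostly collagens, fell in SCNT animals (median -2.85) and 4 of 7 in AI animals (median -1.43). Their median was -2.93 to -2.42 in the SCNT animals, -2.710 to -2.004 in AI animals 1, 2 and 4, 0.26 in AI 3 and -0.59 to 0.42 in the CJ animals. Of 8 smooth muscle markers 5 fell in SCNT (median -0.67) and 2 in AI animals (median -0.37). Of 9 epithelial markers 4 rose and 1 fell in SCNT (median 0.38), and 2 rose in AI animals (median 0.26).

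Leukocytes express the immunoproteasome constitutively. Of 21 leukocyte markers 3 rose and 1 fell in SCNT animals (median 0.09) and 3 rose in AI animals (median 0.13), with CD53 (0.72 and 0.47) and CD52 (0.45 and 0.44) among them. The median of the list was 0.04 to 0.18 in the SCNT animals, 0.05 to 0.13 in the AI animals, with AI 3 at 0.07, and -0.07 to 0.07 in the CJ animals. Single leukocyte markers ranged from -0.29 (CORO1A) to 0.72 (CD53) in SCNT and from -0.18 (CORO1A) to 0.50 (LAPTM5, adjusted p = 0.0883) in AI animals. Of 6 endothelial markers 2 rose and 1 fell in SCNT and 1 rose and 1 fell in AI animals. Of 7 trophoblast markers 4 rose in SCNT and none in AI animals (0 of 7 also at an unadjusted p below 0.05), and their median was 0.77 in SCNT 1, 1.38 in SCNT 4 and -0.03 to 0.19 in the other SCNT animals.

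Other genes of the ubiquitin pathway were followed as well. Of 14 measured proteasome-associated and assembly factors, 3 fell and 1 rose in each comparison (median -0.15 in SCNT and -0.11 in AI animals). UCHL5, a deubiquitinase bound to the cap, fell by 0.50 and 0.27, and VCP, the segregase that hands unfolded substrates to the proteasome, by 0.41 and 0.25. USP14, the other deubiquitinase bound to the cap, fell by 0.33 in AI animals, and the shuttle factor RAD23B by 0.32 in SCNT animals. UFD1, a cofactor of VCP, rose by 0.29 and 0.26. Of 22 genes of ubiquitin and its activation and conjugation, 6 fell and 1 rose in each comparison (median -0.12 and -0.06). Falls with the smallest p were those of the conjugating enzymes UBE2E3 (-0.82), UBE2A (-0.67), UBE2N (-0.36) and UBE2V2 (-0.38) in SCNT and UBE2V2 (-0.52), UBE2K (-0.49), UBE2N (-0.40) and UBE2E1 (-0.33) in AI animals.

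Class I presentation, which the immunoproteasome serves, was split in the same tissue. Of 9 measured genes 4 rose and 2 fell in SCNT animals (median 0.34), and 3 rose and 2 fell in AI animals (median 0.39). B2M, the light chain of class I molecules, rose by 2.23 and 1.51, and the non-classical class I gene BOLA-NC1 by 1.79 and 1.32. PDIA3 (-0.82 and -0.67) and CALR (-0.66 and -0.64), which help load peptides and serve general protein folding in the endoplasmic reticulum, fell. In AI 3, B2M lay at -0.20, against 1.88 to 2.80 in the other AI animals. Of 9 genes of interferon signalling 5 rose and 1 fell in SCNT (median 0.27), and 4 rose in AI animals (median 0.41). IRF1, a transcription factor of the interferon response, rose by 0.89 and 0.70, IRF3 by 0.74 and 0.65 and IRF7 by 1.07 and 0.85. The kinase JAK1 rose by 0.27 in SCNT and 0.41 in AI animals, whereas the receptor chain IFNGR2 fell by 0.36 in SCNT animals.

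SCNT and AI animals were compared through the CJ animals in intercaruncular tissue. None of the 41 genes passed (limma, 4 at an unadjusted p below 0.05), where 0.282% of all probes passed and 7.65% had an unadjusted p below 0.05. The median was 0.07 for the immunoproteasome genes and 0.02 for the others, and the sign of the first depended on AI 3. Without AI 3 the difference was below 0 in all 5 immunoproteasome genes, at -0.14 for PSMB8, -0.96 for PSMB9, -0.20 for PSMB10, -0.21 for PSME1 and -0.26 for PSME2 (median -0.21, none of which passed, lowest adjusted p = 0.826). With all animals the 95% interval of the difference was -0.27 to 0.42 for PSMB8, -1.10 to 0.67 for PSMB9, -0.30 to 0.56 for PSMB10, -0.19 to 0.56 for PSME1 and -0.26 to 0.28 for PSME2, so differences of that size could not be seen. It was narrower for PSMB5 (-0.25 to 0.26), PSMB6 (-0.25 to 0.24) and PSMB7 (-0.21 to 0.20). The 4 genes with an unadjusted p below 0.05 were all higher in SCNT animals, namely PSMF1 (0.68 ± 0.25, adjusted p = 0.439), PSMA4 (0.44 ± 0.20, adjusted p = 0.608), PSMB4 (0.31 ± 0.11, adjusted p = 0.425) and PSMA7 (0.23 ± 0.08, adjusted p = 0.385). Without AI 3 the difference was 0.37 for PSMF1 and 0.07 for PSMB4.

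In caruncular tissue SCNT and AI pools met directly, with 2 pairs of pools. None of the 41 genes passed (limma, 4 at an unadjusted p below 0.05), and 0% of all probes passed, with 12.6% at an unadjusted p below 0.05. The median was -0.03 for the immunoproteasome genes and 0.05 for the others. PSMB8 lay at -0.32 in the first pair and 0.20 in the second, PSMB9 at -0.11 and -0.11, PSMB10 at 0.17 and -0.018, PSME1 at 0.052 and 0.0034 and PSME2 at 0.034 and -0.089. The pairs differed in sign for PSMB8, PSMB10 and PSME2. PSMA7 was 0.31 higher in SCNT pools (adjusted p = 0.291) and PSMA4 0.24 higher (adjusted p = 0.351), and PSMB1 was at -0.22 (adjusted p = 0.379). PSMF1 was at -0.22 (adjusted p = 0.378), negative on 4 of 4 arrays, opposite in sign to the intercaruncular difference of 0.68. That difference between areas was not tested.

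Tissue after IVF-ET and after AI was compared within each area. None of the 41 genes passed in caruncular tissue (limma, 2 at an unadjusted p below 0.05), where 0.0217% of all probes passed and 9.11% had an unadjusted p below 0.05. None passed in intercaruncular tissue (2 at an unadjusted p below 0.05), where 0.00724% and 9.3% did. The medians of the immunoproteasome genes were -0.01 and 0.04 and those of the others -0.04 and -0.01. The 95% intervals of all 41 genes lay between -0.44 and 0.31 in caruncular and between -0.77 and 0.58 in intercaruncular tissue. The interferon-stimulated genes had no call either (medians -0.18 and 0.17, with 7 and 1 of 19 at an unadjusted p below 0.05).

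PSME1 came nearest in caruncular tissue. The mean of its differences from the AI partners was 0.17, 0.14, 0.36, 0.097 and 0.062 in IVF-ET animals 1 to 5, above 0 in all 5, and the fit gave 0.17 ± 0.05 (adjusted p = 0.418). In intercaruncular tissue PSME1 lay at 0.19, 0.19, 0.25, 0.27 and -0.056 in the same IVF-ET animals, and the fit gave 0.17 ± 0.12 (adjusted p = 0.699). PSMB8 lay below 0 in all 5 IVF-ET animals in caruncular tissue (-0.52 to -0.057, fit -0.22 ± 0.10, adjusted p = 0.562) and between -0.48 and 0.20 in intercaruncular tissue (fit -0.17 ± 0.13, adjusted p = 0.704). In caruncular and intercaruncular tissue PSMB9 was at 0.080 and 0.035, PSMB10 at -0.014 and 0.15 and PSMF1 at -0.14 and 0.25, none of which passed. The 95% interval was -0.22 to 0.068 and -0.28 to 0.28 for PSME2, -0.11 to 0.11 and -0.35 to 0.13 for PSMB5, -0.14 to 0.15 and -0.18 to 0.29 for PSMB6 and -0.14 to 0.15 and -0.18 to 0.24 for PSMB7. In intercaruncular tissue the smallest p among the 41 genes were those of PSMG3 (-0.44, adjusted p = 0.469) and PSMD11 (0.24, adjusted p = 0.511), and in caruncular tissue those of PSME1 and PSME3IP1 (-0.19, adjusted p = 0.466). These loops held no CJ animals, so they give no level against CJ.

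The caruncular difference less the intercaruncular one passed for no proteasome gene (limma, 2 of 41 at an unadjusted p below 0.05), where 0.00723% of all probes passed and 7.74% had an unadjusted p below 0.05. The 2 were PSME3IP1 (-0.42, adjusted p = 0.543) and PSMF1 (-0.39, 95% interval -0.76 to -0.02, adjusted p = 0.635). For the immunoproteasome genes the differences between areas lay between -0.17 (PSMB10) and 0.05 (PSMB9).

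**Figure D4:**
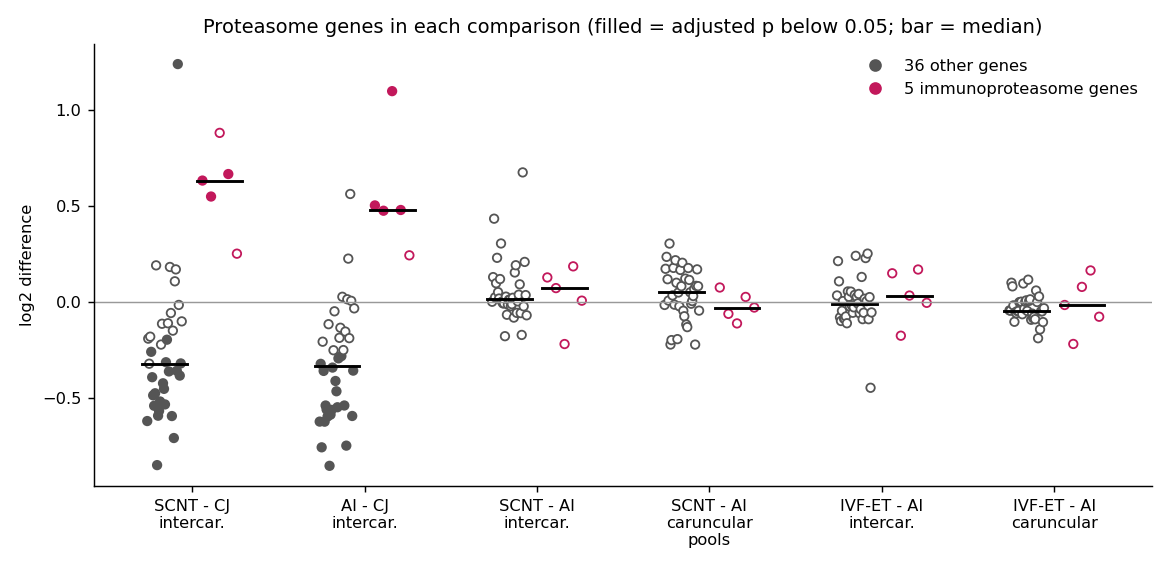
The log2 difference (y axis) of the 36 other proteasome genes (grey) and the 5 immunoproteasome genes (magenta) in 6 comparisons, with 1 point per gene, filled where the adjusted p is below 0.05, and a bar for the median of each set. The sets lie apart in both comparisons with CJ animals (medians 0.63 and -0.32 in SCNT, 0.48 and -0.33 in AI) and overlap around 0 in the other 4.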

How the data were processed

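Each spot has 1 deposited value, a log2 ratio of both dyes. How the authors corrected background and normalized is not given in the sources used here, and spot intensities were not analysed here. The 2 spots of each of the 13824 probes were averaged. Of these probes 8645 carry 1 gene symbol, 105 several and 5074 none. The arrays were centred as deposited (medians -0.0164 to 0.0124) and were used as they stood. Where a gene has several probes, the one with the fewest missing values, then the first, stands for it.

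Differences were estimated in R 4.3.3 with limma 3.58.1. The units of the fit were arrays. The model had a dye term, and arrays with a common animal were given 1 correlation, the same for all probes, through generalised least squares. It was 0.12 for the arrays with CJ and 0.13 for the caruncular loop. For the intercaruncular loop it was 0 and for the difference between areas 0.01. A gene whose animals differ more than this correlation allows for can get too small a p-value. In the pools each dye-swapped pair was averaged and the 2 values were tested against 0. Benjamini-Hochberg adjustment covered every probe tested, and 0.05 was the threshold. The fit was tested on simulated data. Levels of single animals come from least squares over the 20 arrays with CJ, with a dye term.

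The members and the gene lists were chosen with earlier results of these data known. Genes described in full were the immunoproteasome genes, PSMB5, PSMB6, PSMB7, PSMF1, per comparison up to 6 others with the smallest p past the threshold, and examples from up to 4 such genes per list in the comparisons with CJ. Other members were named with their values to account for all of them, and LAPTM5, OXTR, MX1 and COL1A1 were named after their values were seen. Alternatives covered the correlation, the dye term, array weights and scaling, spots and probes, and each animal left out.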

Additional observations from a re-analysis of the deposited data

Results flagged for a closer look

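Of 90 groups of 4 or 5 animals examined, 6 held 1 animal far from the others by Dixon's criterion, which chance alone meets in about 1 of 20 groups. AI animal 3 lay far below the other AI animals in PSMB9 (-0.36 against the CJ mean) and in the mean of the immunoproteasome genes less the mean of the other proteasome genes (0.25). In the loops of IVF-ET and AI, the value of an animal is the mean of IVF-ET minus AI over its arrays. In the caruncular loop PSME2 was -0.35 on the arrays of AI animal 1, which was thus higher than its IVF-ET partners. In the intercaruncular loop PSMB9 was 0.44 on the arrays of AI animal 2, which was thus lower than its partners. There PSME1 was -0.056 for IVF-ET animal 5 and PSME2 was 0.52 for IVF-ET animal 4. AI animals are numbered anew in each set of arrays, so these are other animals than AI 3 above. By its label, AI animal 1 of the caruncular loop is AI animal 2 of the intercaruncular loop. Its partners in both areas were IVF-ET animals 3 and 4, so these flags do not all come from separate animals.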

How the results depend on the processing

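The count of proteasome genes that rose in AI against CJ animals, 4, ranged from 0 to 7 with 1 animal left out, with 0 without AI 2, CJ 2 or CJ 5 and 7 without AI 3. It was 1 with a correlation of 0.3 and 0 with the AI and CJ arrays fitted alone. The count of rises in SCNT against CJ animals, 4, ranged from 4 to 7 with 1 animal left out, again the highest without AI 3, and was 7 with the SCNT and CJ arrays fitted alone. Falls numbered 19 to 22 in SCNT and 17 to 23 in AI animals with 1 animal left out. With arrays scaled to the same spread, the median of the immunoproteasome genes less that of the others was 0.72 in SCNT animals (0.95 without scaling). No named gene changed sign with a call. In SCNT animals PSMB9 and PSME2 gained a call under some alternatives, and no named call was lost. In AI animals PSMB8, PSMB9, PSMB10 and PSME1 each lost the call under some alternatives, and PSME2 and PSMF1 gained it under some. The cause was not tested. Counts of calls in the other comparisons stayed at 0 under every alternative run. Treating the areas of an animal as correlated left no proteasome gene called in the difference between areas. Without AI 3 the median of the immunoproteasome genes less that of the others was -0.24 between SCNT and AI animals (0.057 with all animals).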

Other observations

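Among protein-coding genes of the ARS-UCD2.0 annotation, TAP1 lies between PSMB8 and PSMB9, and TAP2 lies on the other side of PSMB8 with LOC618733 between them. TAP1 and TAP2 form the peptide transporter of class I presentation. PSME2 is separated by RNF31 from IRF9, a transcription factor of the type I interferon response. These neighbours were chosen with results of these data known. TAP1 rose by 0.66 in SCNT animals (adjusted p = 0.00107) and was at 0.39 in AI animals (adjusted p = 0.0669). TAP2 rose by 0.39 in SCNT animals (adjusted p = 0.0218) and was at 0.32 in AI animals (adjusted p = 0.0903). IRF9 rose by 1.02 in SCNT animals (adjusted p = 0.0463) and was at 0.80 in AI animals (adjusted p = 0.182).

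Animal by animal, IRF9 was at 0.29, 2.48, 0.44, 0.63 and 1.27 in SCNT animals 1 to 5, where PSMB9 was at -0.19, 2.13, 0.66, 0.66 and 1.15. SCNT 1 was the lowest and SCNT 2 the highest in both. PSME2, which unlike PSMB9 lies near IRF9, was instead highest in SCNT 1 (0.40) and lowest in SCNT 5 (0.12). In AI animals 1 to 4 IRF9 was at 2.11, 0.73, -0.61 and 1.88, where PSMB9 was at 1.95, 1.85, -0.36 and 1.92. The CJ animals lay between -1.12 and 0.55 in IRF9, so SCNT 1, SCNT 3 and AI 3 lay among them. TAP1, which lies between PSMB8 and PSMB9, was at 0.29, 0.43, 0.32, 1.12 and 1.13 in SCNT animals 1 to 5, with SCNT 4 and SCNT 5 the highest. ISG15 lay between 4.00 and 5.21 in the SCNT animals and was at 4.66 in SCNT 1.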
